A study of Mus musculus with 12 samples.

Results

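Blood endothelial genes were followed in RNA sequencing libraries of mouse hearts that had been injured shortly after birth. The group is a list of 37 symbols in use as markers of blood vessel endothelium, taken by exact symbol from the 46983 symbols in each deposited table. Both tables held 36 of them. Eltd1 was not matched by that symbol, and the tables hold the gene under its current symbol Adgrl4, which was read here with the other endothelial genes. A gene was tested where its mean normalized read count was 10 or more, which 36 members of 13271 genes passed in the non-cardiomyocyte (NonCM) fraction and 35 members of 11944 genes passed in the cardiomyocyte (CM) fraction. Npnt was the member below that mean in CM.

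In the Wls fl/fl mice a floxed Wls was combined with the MCM/+ genotype, and control mice were MCM/+ alone, so every group had the MCM allele. MCM commonly stands for MerCreMer, a Cre recombinase that becomes active after tamoxifen, and the promoter that drives it is not named in the labels. Wls (Wntless) carries Wnt proteins to the cell surface. All mice were of the strain labelled BL6/C57, were given 3 tamoxifen doses on postnatal days 1 to 3 and an infarction on postnatal day 2. Hearts were collected 2 weeks after the operation. Each heart gave a CM and a NonCM fraction, and the labels call the cells adult. The 4 groups were NonCM Wls fl/fl, NonCM control, CM Wls fl/fl and CM control, with 3 libraries each and 3 hearts stated per condition.

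Blood vessel endothelium lines arteries, veins and the dense capillary bed that lies between heart muscle fibres. Its cells hold to each other through VE-cadherin junctions, respond to VEGF and angiopoietins through receptor tyrosine kinases, and in the heart take up fatty acids for the muscle. Arterial and venous cells differ in Notch and ephrin genes. Infarction destroys muscle together with its capillaries, and the series concerns Wnt signals sent out by cardiomyocytes in this setting.

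Recovered reads ranged from 1160146 in NonCM control replicate 1 to 10281214, and the next shallowest library had 5171769. In NonCM control replicate 1, 1 read equals a normalized read count of 5.54. Wls itself averaged 80.9 ± 20.5 normalized reads in CM Wls fl/fl and 218 ± 22.1 in CM control libraries (SD, n = 3 each; log2 difference -1.45, SE 0.17, limma adjusted p = 0.00389), and 332 ± 21.4 in NonCM Wls fl/fl and 403 ± 26.9 in NonCM control libraries (log2 difference -0.28, SE 0.08, limma adjusted p = 0.0831). Replicate 3 of each group could be approximated by mixing replicates 1 and 2, with a residual of 0.994 to 1.04 times the counting variance. Replicates 1 and 2, each set against the other replicates of its group, had residuals of 1.11 to 1.68 times that variance. Whether replicate 3 was a separate library was not tested; were it not one, n = 3 would stand for 2 independent libraries per group, and the SDs, SEs and p-values given here would be too small. The labels do not say that replicates came from separate hearts, so the p-values rest on a spread between libraries that may be technical. Cardiomyocyte marker genes still took 5.64 ± 0.0659% of reads in NonCM Wls fl/fl and 6.70 ± 0.395% in NonCM control libraries, beside 10.3 ± 0.502% in CM Wls fl/fl and 10.2 ± 0.140% in CM control libraries (SD, n = 3 each).

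The labelled endothelial genes were present in every group. Pecam1, the adhesion molecule CD31, Cdh5, the VE-cadherin of endothelial junctions, and Kdr and Tie1, which encode endothelial receptors, had reads in all 12 libraries. The 36 members together took 0.469 ± 0.0144% of all reads in NonCM Wls fl/fl and 0.481 ± 0.0140% in NonCM control libraries. They took 0.342 ± 0.0134% in CM Wls fl/fl and 0.353 ± 0.0216% in CM control libraries (SD, n = 3 each). The ranges of the genotypes overlapped in both fractions. In bulk RNA, fewer endothelial cells and less of these RNAs per cell cannot be told apart.

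Levels between genes were compared as RPKM, the recovered reads divided by the exon length in kilobases and by the library's total reads. By the mean over a fraction's 6 libraries, the 5 highest members were the same in both fractions. Aqp1, the water channel of capillary endothelium, had 140 ± 15.8 RPKM in NonCM Wls fl/fl and 152 ± 15.1 RPKM in NonCM control libraries, and 126 ± 7.44 RPKM in CM Wls fl/fl and 140 ± 19.0 RPKM in CM control libraries (SD, n = 3 each). Fabp4, a fatty acid carrier of capillaries, had 131 ± 1.45 and 150 ± 20.3 RPKM in NonCM Wls fl/fl and NonCM control, and 121 ± 13.4 and 127 ± 19.8 RPKM in CM Wls fl/fl and CM control libraries. These spreads overlap, so that Aqp1 and Fabp4 are not ordered with respect to each other by RPKM. The union exon length of Fabp4, 4489 bases, covers its whole annotated span, so its RPKM may be understated. By reads alone Fabp4 took 12.5% of the members' reads in NonCM Wls fl/fl and 14.0% in NonCM control libraries. Aqp1 took 7.84% and 8.27% there. In CM Wls fl/fl and CM control libraries Fabp4 took 15.8% and 16.1%, and Aqp1 9.69% and 10.4%. Cav1, which forms caveolae, Cdh5 and Ly6c1, a surface protein of capillary endothelium, followed with means over a fraction's 6 libraries of 87.2, 78.4 and 51.5 RPKM in NonCM and 74.8, 67.1 and 46.1 RPKM in CM. Within NonCM Wls fl/fl libraries alone, Cd34 had 58.8 ± 0.828 RPKM, above Ly6c1 at 50.5 ± 3.01 RPKM, while in NonCM control libraries Cd34 had 41.9 ± 0.544 RPKM and Ly6c1 52.6 ± 10.1 RPKM (SD, n = 3 each). The lowest member was Npnt, which encodes the matrix protein nephronectin, with 0.892 RPKM in NonCM and 0.148 RPKM in CM. Ly6c1, Ly6a and Fabp5 have close relatives in the mouse genome between which reads can be split, so their counts are uncertain. Egfl7 shares exonic sequence with the miRNA gene Mir126a that it hosts and with Gm20532 on its strand, and with Mir126b and Agpat2 on the opposite strand. Exons of Rasip1, Ephb4, Dll4, Ecscr, Nr2f2, Sox17 and Cd34 also overlap those of other genes.

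**Figure D1:**
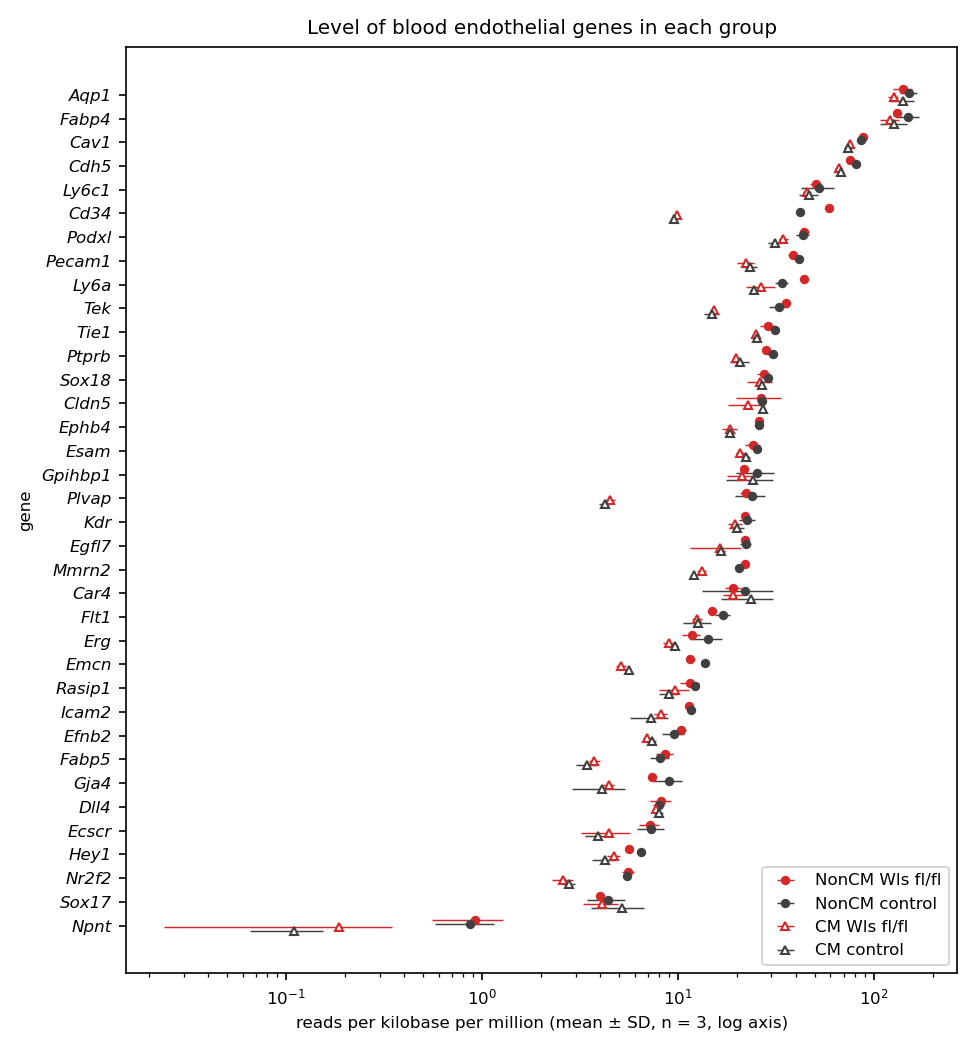
Level of each of the 36 blood endothelial genes in the 4 groups, in RPKM on a log axis, with points at the mean and bars at ± SD of 3 libraries. Aqp1 and Fabp4 are highest and Npnt is lowest in both fractions, while Cd34 and Plvap show wide gaps between NonCM (circles) and CM (triangles).

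Whether blood endothelial genes differ when Wls is targeted was asked within each fraction, NonCM being described before CM. Cd34 rose in Wls fl/fl libraries and Emcn fell, and the other 34 members did not pass the test. These were 2 of 36 members, where 4.51% of all genes passed (2.47% higher and 2.03% lower in Wls fl/fl), so the members' share was near that of all genes. The test was limma on log2(normalized read count + 1), with Benjamini-Hochberg adjustment over all genes at 0.05. On this scale changes of low genes are understated.

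Cd34 encodes a sialomucin found on endothelium and also on fibroblasts of the heart. It had 2771, 2756 and 2800 normalized reads in NonCM Wls fl/fl, against 1990, 2062 and 2041 in NonCM control libraries. Every Wls fl/fl library lay above every control library. The means were 2776 ± 22.1 and 2031 ± 37.0 (SD, n = 3 each), a log2 difference of 0.45 (SE 0.04, fold 1.37, limma adjusted p = 0.00138). The gene lies at chr1:194938819-194961279 on the plus strand of GRCm38 (mm10), and its exons overlap those of Gm16897 on the opposite strand. The use of strand in counting is not given in the sources used here, so reads of the pair cannot be told apart. Fibroblast markers moved with it, at 1.80 ± 0.0509% of reads in NonCM Wls fl/fl and 1.27 ± 0.0306% in NonCM control libraries, in ranges of 1.74 to 1.84% and 1.25 to 1.31%. Of the 10 fibroblast markers 7 rose and 0 fell, with a median log2 difference of 0.49 beside 0.02 over all genes. Among them Col3a1 and Col1a1, fibrillar collagen genes, had log2 differences of 0.65 and 0.65 (limma adjusted p = 0.000645 and 0.00112). The part of fibroblasts in the Cd34 result was not tested.

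Emcn encodes endomucin, a sialomucin of venous and capillary endothelium. It had 404, 401 and 405 normalized reads in NonCM Wls fl/fl, against 482, 480 and 520 in NonCM control libraries. Every Wls fl/fl library lay below every control library. The means were 403 ± 1.99 and 494 ± 22.5 (SD, n = 3 each), a log2 difference of -0.29 (SE 0.06, fold 0.817, limma adjusted p = 0.0322). In the authors' deposited table, the NonCM log2 fold change of Emcn was -0.30 with a DESeq2 adjusted p of 0.0533. That of Cd34 was 0.45 there, with a DESeq2 adjusted p of 1.92e-10. The gene lies at chr3:137341067-137432185 on the plus strand of GRCm38 (mm10). Without replicate 3 of both genotypes no gene of the table passed, and Cd34 and Emcn had log2 differences of 0.45 and -0.26 (limma adjusted p = 0.213 and 0.506).

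The promoter windows of Cd34 and Emcn are shown because these are the members that passed. That of Car4 is shown because it held the only match among the members to the longer ETS motif. Each window runs from 250 bases before to 50 bases after the annotated start, 5′ to 3′ on the gene's strand (RefSeq, GRCm38.p6). Capitals mark matches on either strand to AGGAAG or CCGGAAG, core letters bound by ETS factors such as Erg.
Cd34 (chr1:194938571-194938870, plus strand): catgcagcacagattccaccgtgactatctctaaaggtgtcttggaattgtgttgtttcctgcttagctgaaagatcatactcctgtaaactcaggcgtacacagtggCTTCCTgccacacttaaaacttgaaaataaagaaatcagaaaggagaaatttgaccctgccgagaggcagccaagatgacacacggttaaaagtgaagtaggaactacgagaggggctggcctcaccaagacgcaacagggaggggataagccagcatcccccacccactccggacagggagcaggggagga
Emcn (chr3:137340828-137341127, plus strand): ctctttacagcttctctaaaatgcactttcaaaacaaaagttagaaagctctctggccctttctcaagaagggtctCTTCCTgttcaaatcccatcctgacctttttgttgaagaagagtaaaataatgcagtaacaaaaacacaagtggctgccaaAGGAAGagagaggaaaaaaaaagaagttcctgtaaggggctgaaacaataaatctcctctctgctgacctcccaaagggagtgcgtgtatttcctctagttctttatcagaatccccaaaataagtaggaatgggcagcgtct
Car4 (chr11:84957504-84957803, plus strand): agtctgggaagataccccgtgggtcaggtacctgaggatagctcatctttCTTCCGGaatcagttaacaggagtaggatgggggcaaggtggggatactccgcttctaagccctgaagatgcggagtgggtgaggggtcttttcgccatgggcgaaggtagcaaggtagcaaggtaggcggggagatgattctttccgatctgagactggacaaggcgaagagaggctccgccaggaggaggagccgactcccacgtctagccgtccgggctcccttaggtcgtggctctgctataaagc

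The RefSeq table held windows for 20 of the 37 members. AGGAAG was found on either strand in 11 of the 20, or 55.0%, and in 38.4% of 27025 genes with a window. CCGGAAG was found in 1 of the 20, Car4, and in 9.93% of all genes. AACAGGAA, which can overlap AGGAAG by its last letters, was found in 2 of the 20, Egfl7 and Emcn, and in 2.96% of all genes. The SOX-type letters ACAAAG and ACAATG were found in 3 and 1 of the 20 and in 21.0% and 14.3% of all genes, and TATAAA in 6 of the 20 and 15.7% of all genes. A gene with several windows counted as holding a motif if any window did. With the windows of each gene averaged first, the median GC content was 60.8% over members and 52.8% over all genes. These matches are letters in a window and say nothing of binding.

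Among junction and surface proteins, which were 11 of the tested members, 10 were lower and 1 higher in NonCM Wls fl/fl, with Emcn and Cd34 past the test. Cdh5 had 2030, 2081 and 2056 normalized reads in NonCM Wls fl/fl, against 2306, 2259 and 2262 in NonCM control libraries. The groups did not overlap, and the log2 difference was -0.15 (SE 0.04, limma adjusted p = 0.0912). Pecam1 had 1480, 1597 and 1586 normalized reads in NonCM Wls fl/fl, against 1619, 1820 and 1715 in NonCM control libraries, again without overlap (log2 difference -0.14, SE 0.06, limma adjusted p = 0.216). Ptprb, the endothelial phosphatase VE-PTP, had a log2 difference of -0.16 (SE 0.07, limma adjusted p = 0.254) and its groups overlapped. Of all 36 members, 28 were lower and 8 higher in Wls fl/fl, with a median log2 difference of -0.09 beside 0.02 over all genes, of which 46.8% were lower. Groups without overlap were lower for 6 members and higher for 2, beside 12.6% and 13.9% of all genes. At an unadjusted p under 0.05 there were 10 members, 8 lower and 2 higher, beside 19.3% of all genes.

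The receptor tyrosine kinases gave 0 passes of 4 by limma. Flt1, a VEGF receptor that also acts as a decoy, had 1311, 1357 and 1269 normalized reads in NonCM Wls fl/fl, against 1325, 1652 and 1606 in NonCM control libraries. Control replicate 1, the shallowest library, lay within the Wls fl/fl range, and the log2 difference was -0.21 (SE 0.08, limma adjusted p = 0.190). In the authors' deposited table Flt1 passed in NonCM, with a log2 fold change of -0.25 and a DESeq2 adjusted p of 0.0388. Kdr, the main VEGF receptor, Tie1 and Tek, the angiopoietin receptor, had log2 differences of -0.08, -0.15 and 0.08 (limma adjusted p = 0.484, 0.277 and 0.566).

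The capillary transport and surface genes gave 0 passes of 9, with 6 lower and 3 higher. Ly6a, which encodes Sca-1 and marks endothelium as well as fibroblasts and progenitors, had 354, 327 and 354 normalized reads in NonCM Wls fl/fl, against 249, 269 and 298 in NonCM control libraries. The groups did not overlap, and the log2 difference was 0.34 (SE 0.08, limma adjusted p = 0.0537). Fabp4 had 3829, 3768 and 3827 normalized reads in NonCM Wls fl/fl, against 3814, 5283 and 4392 in NonCM control libraries (log2 difference -0.23, SE 0.10, limma adjusted p = 0.249). Gpihbp1, which holds lipoprotein lipase on the capillary wall, had 357, 374 and 347 normalized reads in NonCM Wls fl/fl, against 322, 535 and 441 in NonCM control libraries (log2 difference -0.24, SE 0.15, limma adjusted p = 0.447). Car4, a carbonic anhydrase on the capillary surface, had 221, 257 and 254 normalized reads in NonCM Wls fl/fl, against 155, 391 and 322 in NonCM control libraries (log2 difference -0.15, SE 0.28, limma adjusted p = 0.822). In these last 3 genes NonCM control replicate 1 lay lowest and NonCM control replicate 2 highest of their group. The CM control libraries, replicates 1 to 3, held the same order, with 3008, 4155 and 3717 normalized reads for Fabp4. They had 287, 499 and 385 for Gpihbp1, and 212, 390 and 283 for Car4. CM control replicate 1 had 6192140 recovered reads, and the source of the order was not tested.

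The count of members that passed changed with the library left out. Without NonCM control replicate 1, 11 of 36 members passed, beside 12.3% of all genes. Cd34 and Ly6a were then higher, and Flt1, Emcn, Fabp4, Gpihbp1, Ptprb, Pecam1, Aqp1, Ly6c1 and Car4 lower, in Wls fl/fl. Without control replicate 3, or without Wls fl/fl replicate 1, 2 or 3, Cd34 alone passed of the members. Of all genes 120 of 13294, 335 of 13273, 101 of 13246 and 77 of 13269 then passed, in that order. In the main fit 598 of 13271 passed. By edgeR's quasi-likelihood test on recovered reads 6 members passed, beside 10.9% of all genes (5.73% higher and 5.16% lower), with Cd34 and Ly6a higher and Flt1, Emcn, Gpihbp1 and Car4 lower. By DESeq2 4 members passed, beside 7.75% of all genes, with Cd34 higher and Flt1, Emcn and Fabp4 lower. Control replicate 1 held the lowest value of its group for 23 of 36 members and control replicate 3 for 3. This order was not counted over all genes, so it is not shown to be particular to the members. A replicate 3 near a mix of replicates 1 and 2 would seldom be the lowest.

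Transcription factors, arterial genes and venous genes of the list gave 0 passes of 9. Erg, an ETS factor that maintains endothelial identity, had 235, 285 and 270 normalized reads in NonCM Wls fl/fl, against 382.5, 296 and 299 in NonCM control libraries. The groups did not overlap, and the log2 difference was -0.30 (SE 0.12, limma adjusted p = 0.192). Sox17 and Sox18, SOX factors of vessel development, had log2 differences of -0.15 and -0.11 (limma adjusted p = 0.651 and 0.501). Hey1, a Notch target of arterial endothelium, had 118, 121 and 118 normalized reads in NonCM Wls fl/fl, against 139, 148 and 138 in NonCM control libraries, without overlap (log2 difference -0.24, SE 0.09, limma adjusted p = 0.182). Gja4, the arterial gap junction gene, had a log2 difference of -0.30 (SE 0.13, limma adjusted p = 0.262), also without overlap. Dll4, the arterial Notch ligand, and Efnb2, the arterial ephrin ligand, had -0.01 and 0.09 (limma adjusted p = 0.975 and 0.723). The venous genes Nr2f2 and Ephb4, a transcription factor and the receptor of Efnb2, had -0.03 and -0.05 (limma adjusted p = 0.881 and 0.734).

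**Figure D2:**
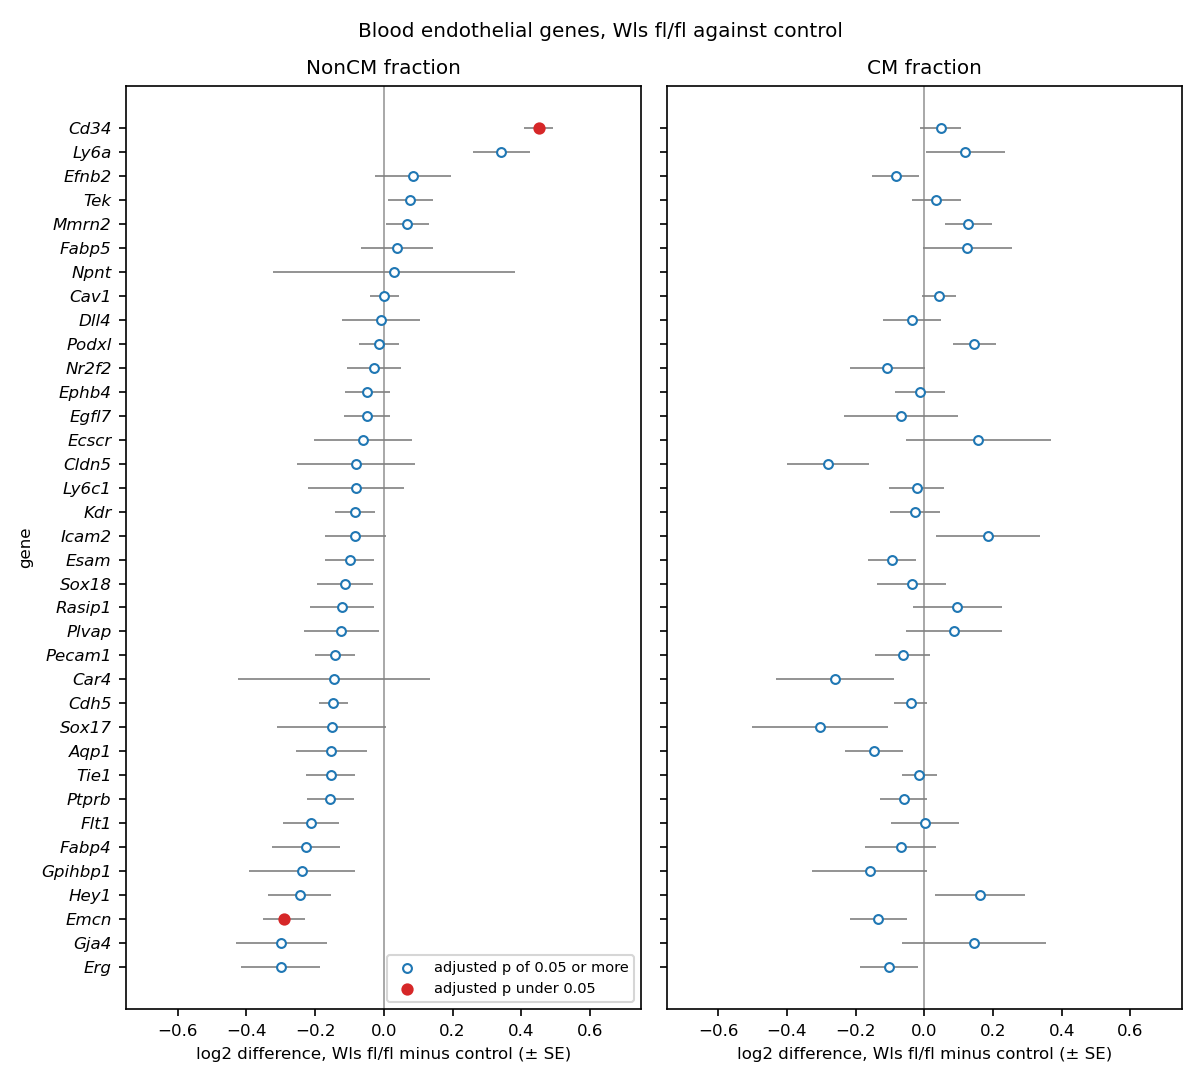
Log2 difference between Wls fl/fl and control libraries for the blood endothelial genes in NonCM (left) and CM (right), with bars at ± SE from limma (3 libraries a group) and filled points where the adjusted p was under 0.05. Cd34 and Emcn are filled in NonCM, 28 of 36 points lie below 0 there, and no point is filled in CM.

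In the CM fraction none of the 35 tested members passed by limma, by edgeR or by DESeq2, where 0.0921%, 0.1% and 0.285% of all genes passed by these tests. At an unadjusted p under 0.05 limma gave 2 members, beside 8.74% of all genes. Cldn5, the claudin of endothelial tight junctions, had 174, 252 and 186 normalized reads in CM Wls fl/fl, against 239, 243 and 252 in CM control libraries. The groups overlapped through Wls fl/fl replicate 2, and the log2 difference was -0.28 (SE 0.12, limma adjusted p = 0.558). Podxl, the sialomucin podocalyxin of the vessel lumen, had 1236, 1136 and 1243 normalized reads in CM Wls fl/fl, against 1162, 1003 and 1105 in CM control libraries, with overlap (log2 difference 0.15, SE 0.06, limma adjusted p = 0.558). In CM 21 members were lower and 14 higher, with a median log2 difference of -0.03 beside 0.00 over all genes, of which 49.9% were lower. Groups did not overlap for Emcn, which was lower, and for Mmrn2, an extracellular matrix gene of vessels, which was higher, beside 7.05% and 7.97% of all genes. Wls fl/fl replicate 2 held the lowest value of its CM group for 24 of 35 members, again without a count over all genes.

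Cd34 had 459, 465 and 446 normalized reads in CM Wls fl/fl, against 453, 432 and 441 in CM control libraries, which overlapped (log2 difference 0.05, SE 0.06, limma adjusted p = 0.860). Fibroblast markers took 0.145 ± 0.0158% of reads in CM Wls fl/fl and 0.141 ± 0.00396% in CM control libraries (SD, n = 3 each). Whether the genotype difference itself differed between fractions was tested with edgeR on the recovered reads of all 12 libraries, as NonCM minus CM. It passed for Cd34 alone among 36 members, where 1.42% of 13131 genes passed (0.343% with a higher difference in NonCM). The difference of differences was 0.39 on the log2 scale (edgeR adjusted p = 0.0294). The call was lost without replicate 3 of any group, CM Wls fl/fl, CM control, NonCM Wls fl/fl or NonCM control, and without NonCM Wls fl/fl replicate 2, with values of 0.36 to 0.45 over all alternatives. Emcn had -0.18 (edgeR adjusted p = 0.421), so its genotype difference in NonCM was not shown to differ from that in CM, where it was -0.13 (limma adjusted p = 0.684).

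**Figure D3:**
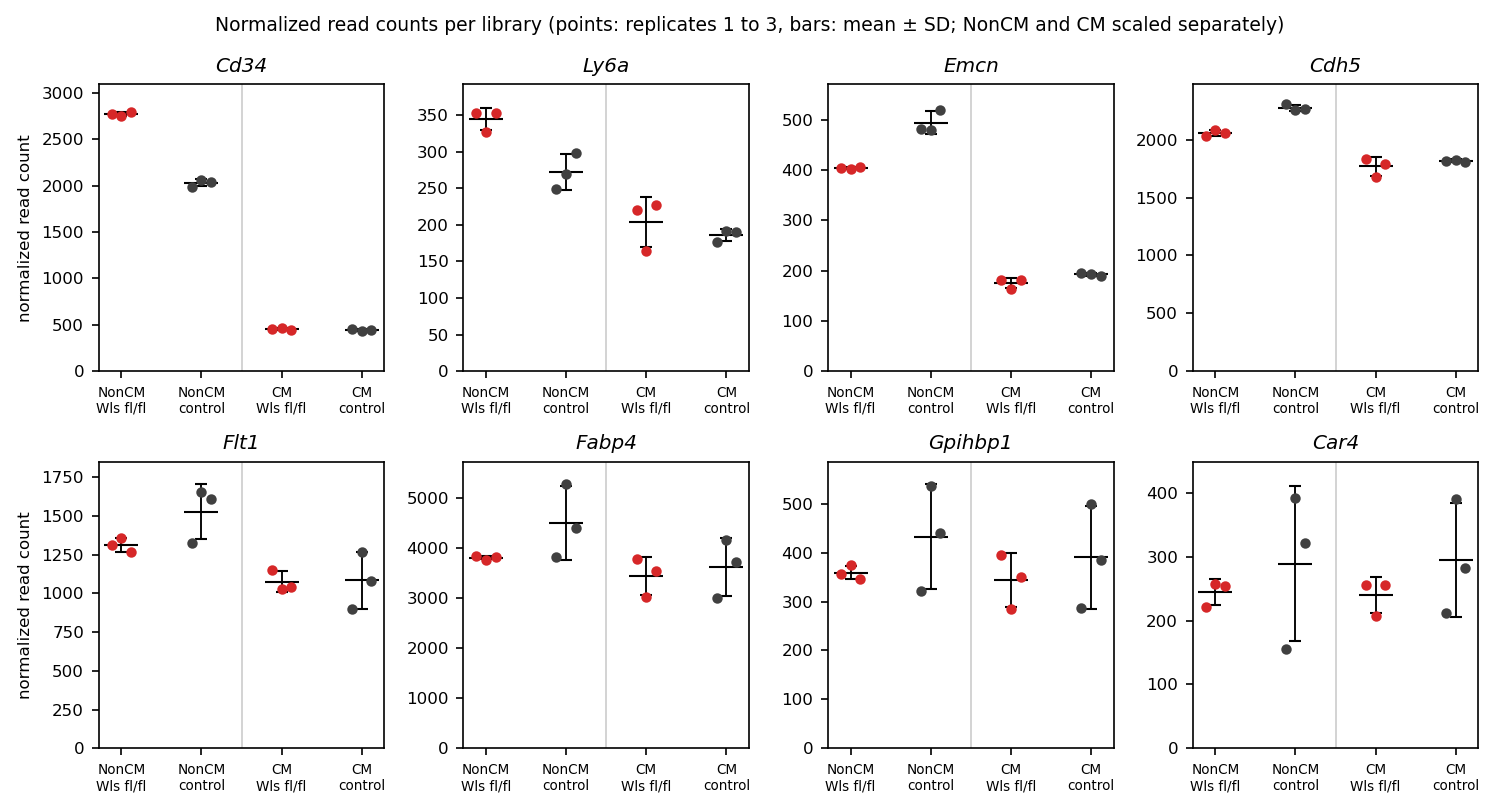
Normalized read counts of 8 blood endothelial genes in each library, with NonCM Wls fl/fl, NonCM control, CM Wls fl/fl and CM control from left to right, points for replicates 1 to 3 and bars for the mean ± SD. NonCM and CM values were scaled separately; the NonCM groups of Cd34, Ly6a, Emcn and Cdh5 do not overlap, while control libraries of Fabp4, Gpihbp1 and Car4 spread widely.

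How far the separation of the hearts divided endothelial RNA was read from NonCM against CM in control hearts, with edgeR on recovered reads scaled by TMM. Of 36 members, 19 were higher in NonCM and 0 were lower, where 28.7% of all genes passed as higher and 28.2% as lower. The median log2 difference of the members was 0.21, or 1.15-fold, beside 0.00 over all genes. It was 2.88 for fibroblast markers and 4.36 for macrophage markers, and -0.88 for cardiomyocyte markers. The labels do not say which fractions came from the same heart, so no heart term was fitted.

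The members spread widely around that median. The RPKM below are scaled by total reads, while folds and log2 differences between fractions are edgeR's after TMM scaling, so that they are not the ratios of the RPKM. Plvap, which forms the diaphragms of fenestrated and venous endothelium, had 27.8, 19.5 and 24 RPKM in NonCM control, against 4.15, 3.99 and 4.56 RPKM in CM control libraries. After TMM scaling it was 4.47-fold higher in NonCM (log2 2.16, edgeR adjusted p = 1.44e-11). Cd34 had 42.4, 41.4 and 41.7 RPKM in NonCM control, against 9.81, 9.28 and 9.54 RPKM in CM control libraries, a 3.69-fold difference after TMM scaling (log2 1.88, edgeR adjusted p = 1.95e-16). Npnt had 1.03, 0.533 and 1.03 RPKM in NonCM control, against 0.161, 0.0769 and 0.0916 RPKM in CM control libraries (log2 2.58, edgeR adjusted p = 0.000622). Plvap, Cd34 and Npnt were named for having the largest differences. Emcn was 2.07-fold and Fabp5, another fatty acid carrier, 1.90-fold higher in NonCM (log2 1.05 and 0.93, edgeR adjusted p = 1.01e-10 and 1.89e-06). Tek, Gja4, Nr2f2 and Pecam1 followed with log2 differences of 0.85, 0.80, 0.76 and 0.60, all of which passed.

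By role, 7 of 11 junction and surface proteins, 2 of 3 secreted and matrix proteins, 2 of 4 receptor tyrosine kinases, 3 of 9 capillary genes, 0 of 3 transcription factors, 3 of 4 arterial genes and both venous genes were higher in NonCM. Of all genes 28.7% passed as higher and 28.2% as lower, and differences between roles were not tested. Cdh5 had 85.3, 78.6 and 80.2 RPKM in NonCM control, against 68.4, 68.2 and 67.7 RPKM in CM control libraries. After TMM scaling its log2 difference was 0.00 (edgeR adjusted p = 0.956). Fabp4, Ly6c1, Cav1, Gpihbp1, Aqp1, Tie1 and Kdr had log2 differences between -0.12 and 0.06, and none passed. The lowest differences were those of Sox17 at -0.36, Cldn5 at -0.23, Dll4 at -0.19, Sox18 at -0.13 and Car4 at -0.12 (edgeR adjusted p = 0.0946, 0.221, 0.101, 0.243 and 0.569). Scaling by total reads moved the median of all genes by 0.24 on the log2 scale and gave 27 of 36 members as higher and 0 as lower, where 43.2% of all genes then passed as higher and 15.4% as lower. Under it the members with a log2 difference above 0 numbered 35, against 26 under TMM scaling, and those below 0 numbered 1, against 10. The 9 members that turned, Cldn5, Dll4, Sox18 and Car4 among them, had values of 0.01 to 0.22, all below that shift, and Sox17 stayed below 0 at -0.12.

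In Wls fl/fl hearts the same comparison gave 14 members higher and 3 lower in NonCM, where 33.9% of all genes passed as higher and 33.4% as lower. The 3 lower calls, of Cdh5, Sox18 and Dll4 (log2 -0.11, -0.24 and -0.22, edgeR adjusted p = 0.0397, 0.0155 and 0.0337), depended on the processing. The number of members called lower was 0 under total-read scaling, by DESeq2, with a minimum mean of 50 reads, without CM Wls fl/fl replicate 1 or 3, and without replicate 3 of all groups, and it ran up to 6 in the other alternatives. It was 6 without CM Wls fl/fl replicate 2, without CM control replicate 2 and with no filter on low counts. Under total-read scaling 26 members passed as higher, where 51% of all genes passed as higher and 19.3% as lower, and all 15 members that turned to values above 0 stayed below the shift of 0.30 in the median of all genes. Under TMM scaling Cd34 was 4.85-fold and Plvap 4.03-fold higher in NonCM there.

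**Figure D4:**
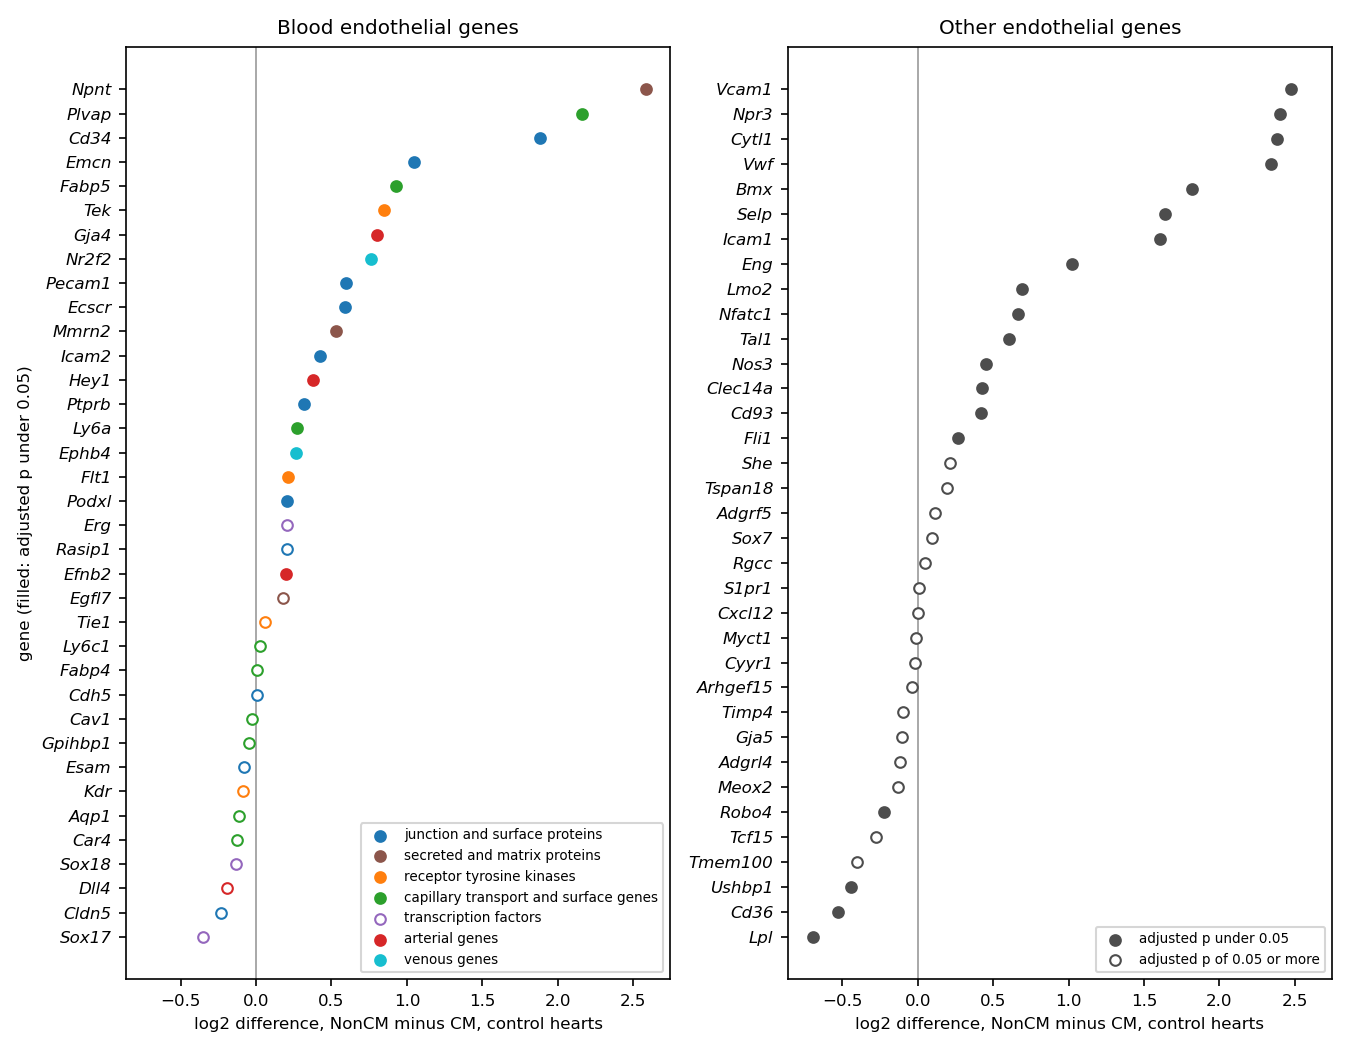
Log2 difference between NonCM and CM libraries of control hearts (3 libraries each) for 36 blood endothelial genes (left, coloured by role) and 35 other endothelial genes (right), with filled points where the edgeR adjusted p was under 0.05. Npnt, Plvap and Cd34 lead on the left, where the median is 0.21, and Vcam1, Npr3, Cytl1 and Vwf lead on the right.

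Other endothelial genes showed a like spread between fractions. Of 35 tested, 15 were higher and 4 lower in NonCM of control hearts, with a median log2 difference of 0.11. Vwf, the von Willebrand factor of larger vessels, had 36.2, 40.3 and 38.5 RPKM in NonCM control, against 6.51, 6.17 and 6.49 RPKM in CM control libraries (5.08-fold after TMM scaling, log2 2.35, edgeR adjusted p = 5.5e-16). Npr3 and Cytl1, known from the endocardium, had log2 differences of 2.40 and 2.38. Lpl and Cd36, genes of fatty acid uptake that cardiomyocytes also express, were lower in NonCM at -0.70 and -0.53. Of the same list, 36 were tested for genotype in NonCM, and Npr3 alone passed. It had 1383, 1315 and 1381 normalized reads in NonCM Wls fl/fl, against 1530, 1851 and 1730 in NonCM control libraries (log2 difference -0.32, SE 0.07, limma adjusted p = 0.0371).

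Among pathways around these genes, 0 of 12 tested genes of the VEGF, angiopoietin and apelin system and 0 of 8 of the Notch pathway passed for genotype in NonCM. The lowest limma adjusted p was 0.198, for Angpt1, the Tek ligand (log2 difference -0.38), and 0.106, for Notch1 (log2 difference -0.18). Of 9 endothelial transcription factors outside the list, Klf4, a flow-responsive factor, was higher, with 1355, 1465 and 1379 normalized reads in NonCM Wls fl/fl, against 1026, 1245 and 1133 in NonCM control libraries (log2 difference 0.31, SE 0.07, limma adjusted p = 0.0492). Of 7 lymphatic genes Prox1 was lower (log2 difference -0.42, SE 0.07, limma adjusted p = 0.0129). Prox1, which drives lymphatic identity and is also made by cardiomyocytes, was lower in NonCM than in CM of control hearts (log2 -0.62), unlike the other 6 lymphatic genes, which were higher. Of 8 pericyte and smooth muscle genes Abcc9 was lower (log2 difference -0.22, SE 0.05, limma adjusted p = 0.0374). The 8 genes had a median log2 difference of 0.03, with 5 higher and 3 lower. Like Prox1, Abcc9 was lower in NonCM than in CM of control hearts (log2 -0.62, edgeR adjusted p = 3.65e-09). In that comparison 4 of the 8 genes were higher and 4 lower, so the Abcc9 result is not shown to be one of pericytes. Of 9 macrophage markers Lyz2 and Cd68 were higher (log2 differences 0.47 and 0.47, limma adjusted p = 0.0031 and 0.0229), with the list at 0.167 ± 0.00644% of reads in NonCM Wls fl/fl and 0.129 ± 0.0131% in NonCM control libraries. Cardiomyocyte markers were lower in 10 of 12, with a median log2 difference of -0.28. None of these lists had a gene past the test in CM.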

How the data were processed

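RNA sequencing libraries came from NonCM and CM fractions of Wls fl/fl and control hearts, 3 per group, with groups taken from the labels. STAR, DESeq2 and mm10 are named, without versions, by the submitters' processing notes. The annotation, the counter and whether it used strand were not given in the sources used here.

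Per the file headers and values, each deposited signal value is the authors' read count divided by a library size factor within its table. All values above 0 were whole multiples of a step, at a tolerance of 0.01 reads (100%), so reads were recovered. Log2 fold changes, p-values and a test score by the authors stand beside them in the deposited tables, and are printed only where named as the authors'.

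The genotype test within each table was limma 3.58.1 in R 4.3.3 (trend) on log2(value + 1) for genes with a mean of 10 or more. Fractions, in control and in Wls fl/fl hearts, and the difference of differences were fitted with edgeR 4.0.16 (quasi-likelihood, TMM) on recovered reads of 12 libraries, for genes with a mean of 10 or more reads. P-values were adjusted over all genes tested. DESeq2 1.42.0 was an alternative, beside other scalings, filters, pseudocounts and libraries left out. RPKM used union exon lengths of GENCODE M21 (GRCm38) and total recovered reads. The code was tested on simulated counts. Depth limits precision most in NonCM control replicate 1.

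Members, lists, roles and tests were chosen with earlier results of these data known. Named members passed a test, had an unadjusted p under 0.05 in a genotype comparison, were among the 5 highest by RPKM, or had the 5 largest or smallest fraction differences, and others were named to complete a role. Of other lists, passing genes (at most 4 per list) were named, and Vwf, Npr3, Cytl1, Vcam1, Lpl, Cd36, Angpt1 and Notch1 were chosen after their values were seen.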

Additional observations from a re-analysis of the deposited data

Results flagged for a closer look

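The genotype difference of Cd34 differed between fractions in the main fit, at 0.45 on the log2 scale in NonCM and 0.05 in CM by limma, with a difference of differences of 0.39 by the edgeR interaction term (edgeR adjusted p = 0.0294). This call was kept in 13 of 19 alternatives. All 3 NonCM Wls fl/fl libraries exceeded all 3 NonCM control libraries, while the CM groups overlapped. Fibroblast markers differed by genotype in NonCM, at 1.80% and 1.27% of reads in Wls fl/fl and control, and were at 0.145% and 0.141% in CM Wls fl/fl and CM control. By the edgeR interaction term all 10 fibroblast markers lay above 0, with a median of 0.44, and 2 of them passed, beside 1.42% of all genes. The part of these markers' cells in the Cd34 difference was not tested.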

How the results depend on the processing

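The count of NonCM members passing, 2 by limma, was 6 by edgeR, 4 by DESeq2 and 4 at a limma adjusted p under 0.1. Of all genes, 598, 1446 and 1120 of 13271 passed by limma, by edgeR and at 0.1, and 646 of 8334 by DESeq2. The member count ran from 0 to 11 when libraries were left out. It was 11 without NonCM control replicate 1, where 1634 of 13280 genes passed. Without replicate 3 of both genotypes it was 0, where 0 of 13278 genes passed. Cd34 passed in 14 of 15 alternatives (log2 0.44 to 0.46) and Emcn in 10 of 15 (-0.31 to -0.25). The CM count stayed 0 in all 15 alternatives run, where between 2 of 11937 and 41 of 26529 genes passed. The count of members whose genotype difference differed between fractions, 1, ran from 0 to 1 with libraries left out and was 1 in the other alternatives. Of all genes 186 of 13131 passed in the main fit, and 0 of 13060 to 264 of 12993 with libraries left out. The count differing between fractions in control hearts, 19, was 27 under total-read scaling and 15 by DESeq2, and ran from 13 to 19 with libraries left out. All genes passing numbered 7475 of 13131 in that main fit, 7687 of 13131 under total-read scaling and 6226 of 16740 by DESeq2. With libraries left out they ran from 5505 of 12965 to 7560 of 13216. Scaling by total reads turned 9 of the 10 members below 0 to above 0, all by less than the shift of all genes, among them Cldn5 at 0.0068, Dll4 at 0.048, Sox18 at 0.11 and Car4 at 0.11. The count in Wls fl/fl hearts, 17, whose alternatives were chosen after seeing the data, was 26 under total-read scaling and ran from 13 to 20 with libraries left out, with 0 to 6 of them lower in NonCM. All genes passing there numbered 8840 of 13131 in the main fit and 9235 of 13131 under total-read scaling. With libraries left out they ran from 7149 of 12965 to 8962 of 13232. In control hearts the log2 difference of Car4 between fractions, -0.12 in the main fit, ran from -0.32 to 0.10 with libraries left out. It was 0.10 without CM control replicate 2. No paired analysis was run, because the labels do not say which fractions came from the same heart. Library titles are numbered in the same order in both fractions, and a pairing by that order was not tested. The fits between fractions treated all 12 libraries as independent. Depth limits NonCM control replicate 1 most, since 1 read there equals a normalized read count of 5.54.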
